A study of Homo sapiens with 6 samples.

Results

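The genes examined here encode the BMP, TGF-beta, activin and Nodal signalling pathway in 3PPE, the endoderm of the third pharyngeal pouch, made from human embryonic stem cells. The list held 43 genes, chosen by symbol through GENCODE release 29 out of 58735 genes in the count table, and it covered ligands, receptors, SMAD proteins, inhibitors and the ID target genes. The cells were of H9, 1 established stem cell line of wild-type genotype, so all libraries share 1 genetic background. Both groups went through the same differentiation: culture on mouse embryonic fibroblasts (MEF) for 5 days, activin A at 100 ng/ml with WNT3A at 50 ng/ml at the start, and reseeding at day 4. After reseeding, the differentiation medium held retinoic acid (RA, 1 µM), BMP4 (20 ng/ml), SB431542 (10 µM) and IWP2 (2.5 µM). At day 7 the cells were transfected by lipid with a negative control siRNA (siControl, 3 libraries) or an siRNA to HOXA3 (siHOXA3, 3 libraries), the medium was exchanged for opti-MEM some hours later, and RNA was taken at day 9. The comparison asks what less HOXA3, a homeobox factor needed for the third pouch, does to the transcripts of the differentiating cells.

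Ligands of this family bind paired type I and type II receptor kinases. BMPs lead to phosphorylation of SMAD1, SMAD5 and SMAD9, and TGF-beta, activin and Nodal to that of SMAD2 and SMAD3. SMAD4 joins both branches in the nucleus. ID genes are classic direct targets of the BMP branch, and SMAD6, SMAD7 and BAMBI are feedback inhibitors that the pathway itself induces. Bmp4 marks the ventral, thymus-forming part of the third pouch in the embryo, and Noggin the dorsal part. Until its exchange for opti-MEM, the differentiation medium acted on this pathway directly. Recombinant BMP4 feeds the BMP branch, and SB431542 blocks the kinases encoded by TGFBR1 and ACVR1B. The study does not say that opti-MEM held either agent, so levels at day 9 may not be those under them. Both agents were given to both groups, and they act on proteins. Transcript levels of ligands, receptors and receptor-activated SMADs therefore do not report how far either branch was active. Target genes can respond to a branch, but no branch activity was measured here.

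The stretches below are the 250 bases before the RefSeq start, 5′ to 3′ on the gene's strand, with motif matches in capitals. INHBA and SMAD5 are printed because they had the smallest p-values among the members, and SMAD6 and BAMBI because they are feedback inhibitors with SMAD-type motifs.
INHBA, GRCh38.p14 chr7:41703091-41703340, minus strand: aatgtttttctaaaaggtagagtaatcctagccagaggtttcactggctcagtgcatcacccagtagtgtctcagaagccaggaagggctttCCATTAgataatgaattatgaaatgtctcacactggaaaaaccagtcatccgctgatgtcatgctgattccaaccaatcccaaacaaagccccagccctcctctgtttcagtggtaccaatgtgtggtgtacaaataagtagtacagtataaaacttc
SMAD5, GRCh38.p14 chr5:136132595-136132844, plus strand: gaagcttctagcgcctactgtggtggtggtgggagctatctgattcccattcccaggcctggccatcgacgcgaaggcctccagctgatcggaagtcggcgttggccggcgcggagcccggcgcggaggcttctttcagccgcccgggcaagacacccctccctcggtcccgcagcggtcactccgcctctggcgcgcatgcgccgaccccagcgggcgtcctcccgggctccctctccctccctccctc
SMAD6, GRCh38.p14 chr15:66701986-66702235, plus strand: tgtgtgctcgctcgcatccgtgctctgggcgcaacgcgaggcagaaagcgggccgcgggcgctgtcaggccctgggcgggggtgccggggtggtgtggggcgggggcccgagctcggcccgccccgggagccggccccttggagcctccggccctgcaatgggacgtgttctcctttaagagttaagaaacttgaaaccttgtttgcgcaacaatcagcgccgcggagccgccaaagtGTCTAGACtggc
BAMBI, GRCh38.p14 chr10:28677271-28677520, plus strand: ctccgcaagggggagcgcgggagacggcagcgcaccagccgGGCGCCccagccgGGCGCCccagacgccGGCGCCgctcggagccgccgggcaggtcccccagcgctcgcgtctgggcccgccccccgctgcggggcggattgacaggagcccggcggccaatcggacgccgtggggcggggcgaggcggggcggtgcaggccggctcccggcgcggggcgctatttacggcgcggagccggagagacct
4 motifs were searched on both strands: GTCTAGAC, the palindromic SMAD element; GGCGCC, a GC-rich element bound by BMP-type SMADs; and TAATGG and TAATTA, cores of homeobox factor sites. None of the matches printed above overlaps another. SMAD6 holds GTCTAGAC starting 12 bases before its start, a motif found in 0.182% of all 35116 RefSeq promoters of the same length. BAMBI holds GGCGCC 3 times, in a window of 81.2% G and C, and 16.4% of all promoters hold it at least once. INHBA holds TAATGG on the opposite strand (as CCATTA) in a window of 42.8% G and C, and 5.9% of all promoters hold TAATGG. SMAD5 holds none of the 4. RefSeq entries were at hand for 37 of the 43 members, with 65 promoters, and not for BMP2, BMP7, LEFTY1, LEFTY2, TDGF1 and NOG. Of those 37 members, 13 had GGCGCC in any of their promoters, beside 19.0% of all genes with an entry. On the same count by gene, 4 had TAATGG (INHBA, TGFBR1, SMAD1 and SMAD7), beside 7.17%. TAATTA was in 1 (SMAD3), beside 5.37%, and GTCTAGAC in 1 (SMAD6), beside 0.231%. Members with several promoters have more bases to match: counted by promoter, GGCGCC was in 23.1% and TAATGG in 7.69% of the 65. These are matches of letters only, and no binding was measured here.

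The libraries held 14117150 to 15282307 counted reads, and 3 counts, the limit that a count of 0 allows, were worth 0.196 to 0.211 CPM (the count scaled to the size of the library), counting error only. HOXA3 itself had 16.6, 15.8 and 15.4 CPM in siControl and 10.9, 13.2 and 15.5 CPM in siHOXA3, so the groups overlapped at siHOXA3 replicate 3. By edgeR's quasi-likelihood test, adjusted by the Benjamini-Hochberg method over all tested genes as are the adjusted p-values below, the log2 fold change of HOXA3 was -0.27 (SE, its standard error, 0.157, adjusted p = 0.828). Every comparison below rests on libraries with this size of difference in the targeted transcript. The study reports a significant reduction of HOXA3 mRNA by qRT-PCR and of its protein by Western blot, measures other than these counts. Replicate 2 of siHOXA3 stood apart from the other libraries: of the 16561 genes that passed the filter on low counts, 29% had their highest and 29.1% their lowest value in it, against 11.5 to 16.6% and 11.4 to 17.9% in each of the others. The labels say only that each group was in triplicate, and the study describes its repeats as independent biological ones without saying how the RNA-seq cultures were kept apart. If the libraries were not from separate cultures, p-values measure only a spread between libraries that may be technical. Of 12 pharyngeal endoderm markers 6 were tested, and their summed level was 324 to 339 CPM in siControl and 330.3 to 457 CPM in siHOXA3, most of it from EPCAM. FOXA2 and SOX17, defining factors of foregut and definitive endoderm, had counts of 0 to 2 in all libraries. Of 14 amnion and trophoblast markers 13 were tested, and they summed to 6261 to 6776 CPM in siControl and 6799 to 7504 CPM in siHOXA3. IGFBP3 supplied 2930 to 3215 and 3368 to 3817 CPM of this, and without it the sums overlapped (3331 to 3561 and 3431 to 3687 CPM). Mesenchyme markers (8 of 10 tested) summed to 4509 to 4679 CPM in siControl and 4523 to 5025 CPM in siHOXA3. Collagen genes and LUM supplied most of this. Over all libraries PRRX1 had 0 counts, POSTN 0 to 5 counts, TWIST1 2.29 to 4.80 CPM and PDGFRB 94.8 to 146 CPM. Pluripotent cell markers (5 of 8 tested) summed to 1258 to 1312 CPM in siControl and 1317 to 1476 CPM in siHOXA3, most of it from LIN28A, without which the sums overlapped (224.5 to 251 and 241.5 to 283 CPM). Over all libraries NANOG had 0 to 4 counts, TDGF1 0 to 3 and UTF1 0. POU5F1 had 4.75 to 8.49 CPM, SOX2 2.25 to 5.42, DPPA4 93.6 to 117 and ZFP42 122 to 152 CPM. Whether such other cell types were present, and their part in the results, was not tested.

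Of the 43 genes, 37 passed the filter and were tested. The 6 others were INHBB, NODAL, LEFTY1, LEFTY2, TDGF1 and GREM1, each with at most 10 counts in any library. None of the 37 had an adjusted p under 0.05, where 0.00604% of all tested genes, 1 gene, did by edgeR. DESeq2 also gave 0 members, where it called 0.229% of all genes, and limma-voom with quality weights gave 1, INHBA, where it called 0.405%. At an unadjusted p under 0.05 there were 6 members, 3 higher in siHOXA3 (INHBA, BMP7 and TGFB2) and 3 lower (SMAD5, TGFBR2 and TGFBR3). Of all tested genes 6.36% had an unadjusted p under 0.05, 3.79% higher and 2.57% lower. Without siControl replicate 3 the count was 3 (INHBA, BMP7 and SMAD5), and the share of all genes was then 3.91%. The values of the groups did not overlap for 5 members, INHBA and BMP7 above and SMAD5, TGFBR2 and TGFBR3 below, against 13.3% of all tested genes, 6.41% above and 6.88% below. With 1 library left out this count was at most 12, without siHOXA3 replicate 1 and without siHOXA3 replicate 2, beside 22.0% and 27.6% of all genes. The median log2 fold change was -0.026 over the members and 0.0019 over all tested genes, and the median size of the change without its sign was 0.15 and 0.14. The 95% interval of the log2 fold change lay within ±1 for 33 of the 37 and within ±0.5 for 21. In bulk RNA, fewer cells of a type and less RNA per cell cannot be told apart.

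**Figure D1:**
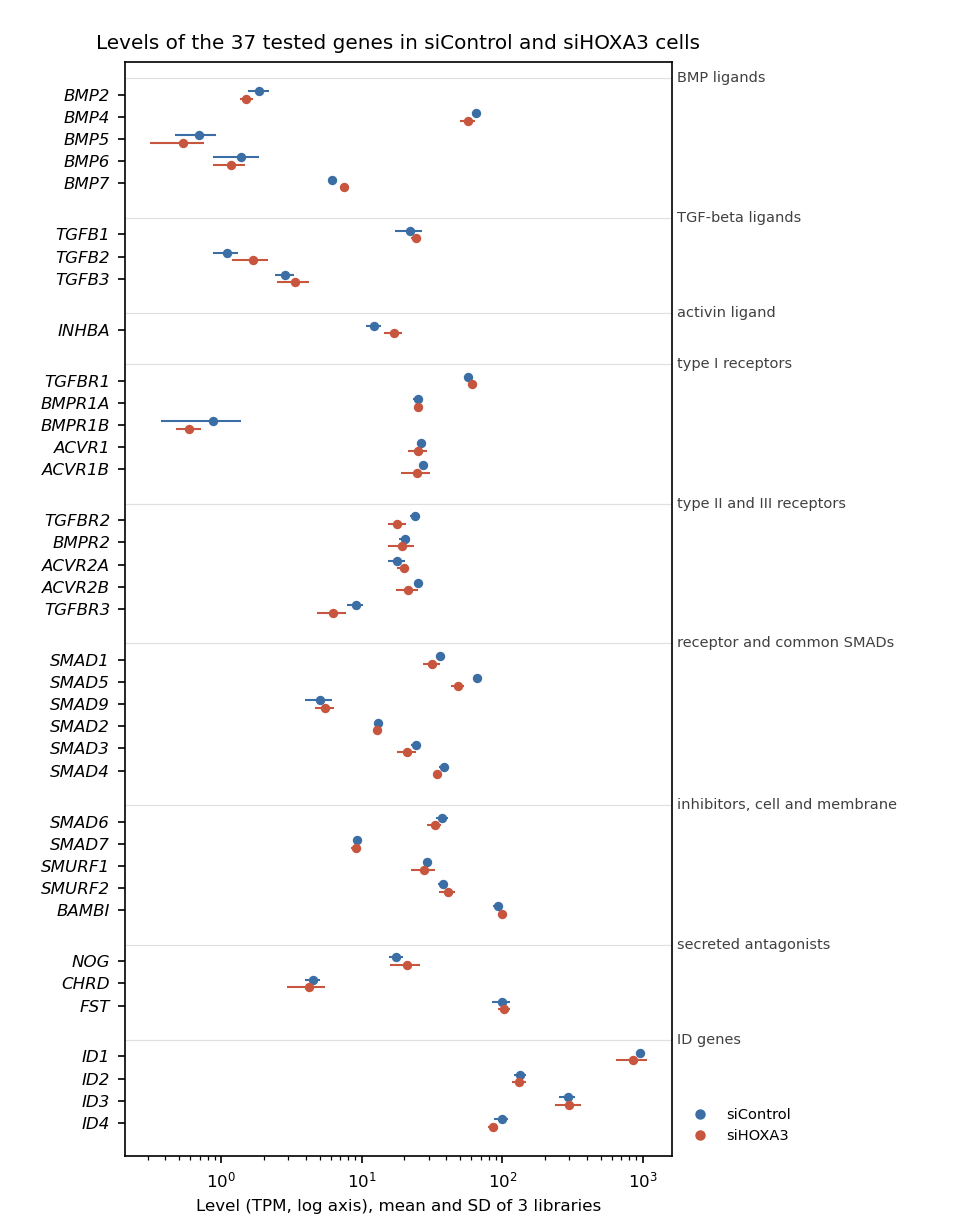
Levels of the 37 tested genes in TPM (log axis), grouped by role, as the mean (point) and SD (line) of 3 siControl and 3 siHOXA3 libraries. ID1 is the most abundant member at 948 TPM in siControl, BMP5 the least at 0.69 TPM, and TGFBR3 has 9.03 TPM in siControl and 6.25 TPM in siHOXA3.

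BMP4 was the leading BMP ligand transcript. In TPM, a scale that divides by transcript length and so allows comparison between genes, BMP4 stood at 65.0 ± 2.94 (SD, n = 3) in siControl, BMP7 at 6.09 ± 0.338, BMP2 at 1.86 ± 0.313, BMP6 at 1.37 ± 0.492 and BMP5 at 0.69 ± 0.225. The cells thus carried their own BMP4 message, in addition to the recombinant protein they had been given. BMP4 (chr14:53949736-53958761, GRCh38) had 46.1, 50.2 and 48.6 CPM in siControl and 39.4, 44.8 and 47.9 CPM in siHOXA3. The groups overlapped, and the log2 fold change was -0.13 (SE 0.111, 95% interval -0.38 to 0.11, edgeR adjusted p = 0.859). By qRT-PCR and Western blot, measures other than these counts, the study reports lower BMP4 after HOXA3 siRNA. From a heatmap of its RNA-seq it also reports that key 3PPE transcription factors were lower, without listing the genes of that heatmap in its text. BMP7, a ligand that forms potent heterodimers with BMP4, had 9.31, 9.10 and 10.0 CPM in siControl and 11.7, 12.8 and 11.9 CPM in siHOXA3. All 3 siHOXA3 values lay above the siControl values. The log2 fold change of BMP7 (chr20:57168748-57266629) was 0.36 (SE 0.148, 95% interval 0.033 to 0.68, unadjusted p = 0.0336, edgeR adjusted p = 0.741). Its unadjusted p ranged from 0.0252 to 0.102 over the alternatives. BMP2, BMP5 and BMP6 had log2 fold changes of -0.24, -0.32 and -0.18, each with fewer than 4 CPM in every library, and the intervals of BMP5 and BMP6 reached beyond a 2-fold decrease. Summed over the 5 BMP ligands, the level was 59.9 to 65.9 CPM in siControl and 56.2 to 63.7 CPM in siHOXA3.

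Among the TGF-beta ligands TGFB1 led with 22.0 ± 4.70 TPM (SD, n = 3) in siControl, above TGFB3 (2.84 ± 0.427) and TGFB2 (1.09 ± 0.217). TGFB1 had 28.3, 24.5 and 18.0 CPM in siControl and 28.4, 27.3 and 25.0 CPM in siHOXA3, overlapping ranges with a log2 fold change of 0.19 (SE 0.161, edgeR adjusted p = 0.863). TGFB2 (chr1:218346235-218444619) had the largest positive log2 fold change of the members on few reads, with counts of 25, 38 and 32 in siControl and 60, 37 and 48 in siHOXA3. Its second siHOXA3 library fell among the controls. The log2 fold change was 0.66 (SE 0.293, 95% interval 0.016 to 1.31, unadjusted p = 0.0455, edgeR adjusted p = 0.768), and the unadjusted p ranged from 0.00956 to 0.187 over the alternatives. Of the 50-base stretches of TGFB2 exons, 25.4% also occur in TGFB2-OT1, a transcript annotated within its locus, so its reads may have been divided between the 2 genes. TGFB3 had a log2 fold change of 0.28 (95% interval -0.30 to 0.85).

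INHBA, which encodes the subunit of activin A, was the only member of its class with a level that could be tested. The recombinant protein of the same name had been given in the first days of differentiation. INHBA (ENSG00000122641, chr7:41667168-41705834, GRCh38) had 31.6, 30.3 and 24.4 CPM in siControl and 46.4, 37.5 and 38.8 CPM in siHOXA3. The lowest siHOXA3 value lay above the highest siControl value. The ratio of the means was 1.42 and the log2 fold change 0.51 (SE 0.136, 95% interval 0.21 to 0.81). By edgeR's quasi-likelihood test the unadjusted p was 0.00327 and the adjusted p 0.544. In siControl, INHBA stood at 12.2 ± 1.55 TPM, between BMP7 and TGFB1. Under limma-voom with quality weights, which weight each library by its spread, its adjusted p was 0.0342, and under the other 12 alternatives it was 0.0671 to 0.997. INHBB, the other activin subunit, had counts of 0 to 2. NODAL had 4 to 10 counts in every library, or 0.264 to 0.670 CPM. LEFTY1 and LEFTY2, Nodal antagonists that Nodal signalling induces, had 2 and 3 counts in 1 library each and 0 in the other 5. TDGF1, the Nodal co-receptor of pluripotent cells, had 3 counts in 1 library and 0 in the other 5. Reads of LEFTY1, LEFTY2 and TDGF1 are uncertain, since 46.8%, 24.4% and 34.3% of their 50-base stretches occur in other genes, and 41.2% of the exon bases of NODAL are overlapped by a gene on the opposite strand.

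**Figure D2:**
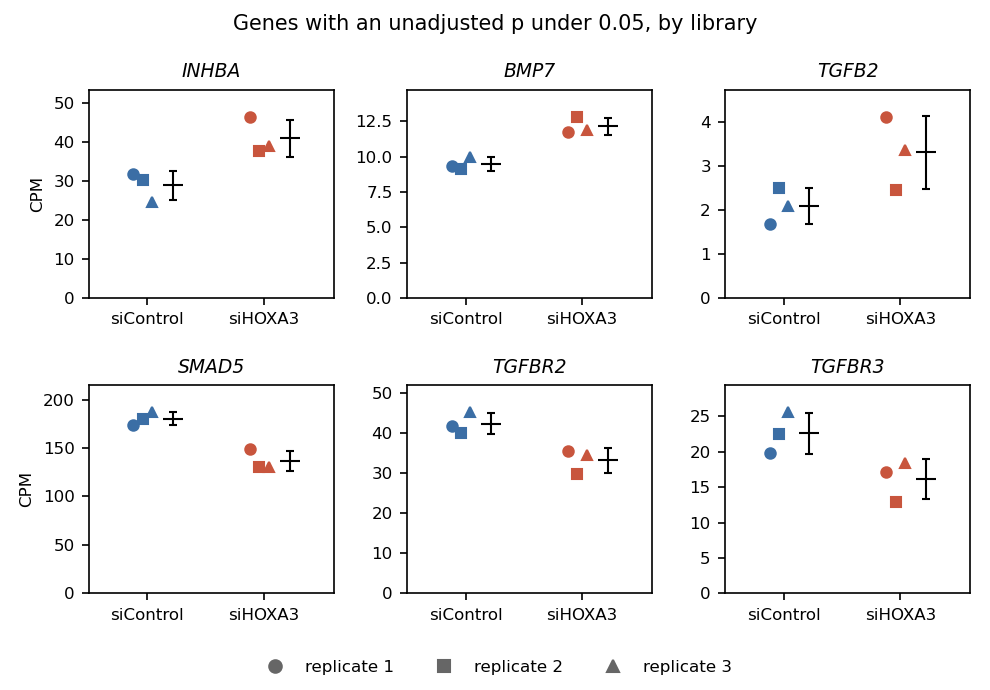
CPM of the 6 members with an unadjusted p under 0.05, by group and replicate (symbols), with the mean and SD of each group of 3 (black). INHBA and BMP7 are higher and SMAD5, TGFBR2 and TGFBR3 lower in all 3 siHOXA3 libraries, while the second siHOXA3 library of TGFB2 (37 counts) lies among the controls.

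The type I receptors, the kinases that phosphorylate SMADs, were led by TGFBR1, the TGF-beta type I receptor and a target of SB431542, with 57.0 ± 3.04 TPM (SD, n = 3) in siControl. ACVR1B followed at 27.3 ± 1.35, ACVR1 at 26.2 ± 1.57 and BMPR1A at 25.2 ± 2.14, 3 levels that differed by no more than the SD of BMPR1A, while with the joined length of all exons BMPR1A (38.1 TPM) was the highest of them. BMPR1B was low at 0.874 ± 0.502. TGFBR1 had 138, 143 and 151 CPM in siControl and 161, 167 and 150 CPM in siHOXA3. Replicate 3 of siHOXA3 fell below the highest control, and the log2 fold change was 0.15 (SE 0.0958, edgeR adjusted p = 0.832). BMPR1A, the main BMP type I receptor of the early embryo, had a log2 fold change of 0.041 (95% interval -0.17 to 0.26), and 12.0% of its 50-base stretches are shared with other genes. The values of ACVR1 and ACVR1B were -0.0085 and -0.10. BMPR1B gave -0.51, with an interval from -1.49 to 0.47.

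Of the type II and type III receptors, which bind ligand and present it to type I receptors, the TGF-beta receptors TGFBR2 and TGFBR3 were lower in every siHOXA3 library. TGFBR2 (chr3:30606502-30694142) had 41.8, 40.1 and 45.2 CPM in siControl and 35.6, 29.7 and 34.5 CPM in siHOXA3. Its log2 fold change was -0.35 (SE 0.116, 95% interval -0.60 to -0.094, unadjusted p = 0.0118, edgeR adjusted p = 0.702). TGFBR3 (chr1:91680343-91906335), the co-receptor betaglycan that binds TGF-beta and inhibin, had 19.8, 22.5 and 25.6 CPM in siControl and 17.1, 12.9 and 18.5 CPM in siHOXA3. The gap between its groups was narrow, 18.5 against 19.8 CPM. Its log2 fold change was -0.48 (SE 0.163, 95% interval -0.84 to -0.12, unadjusted p = 0.0128, edgeR adjusted p = 0.710). Both had their lowest value in siHOXA3 replicate 2. Without that library the log2 fold changes were -0.28 and -0.35, with unadjusted p of 0.0143 and 0.0210, and without siControl replicate 3 the unadjusted p was 0.0515 and 0.0630. The activin and BMP type II receptors had smaller values. ACVR2B stood at 25.0 ± 1.33 TPM in siControl and TGFBR2 at 23.7 ± 1.59, but with the joined length of all exons TGFBR2 (35.7 TPM) was above ACVR2B (28.8 TPM), so the class has no clear leader. ACVR2B had 116, 108 and 119 CPM in siControl and 117, 88.0 and 99.5 CPM in siHOXA3. Its log2 fold change was -0.18 (SE 0.116, edgeR adjusted p = 0.838). BMPR2 gave -0.026 (95% interval -0.30 to 0.25) and ACVR2A 0.20 (95% interval -0.095 to 0.50).

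SMAD5, a BMP-branch SMAD, had the smallest p-value of the 37 members. SMAD5 (ENSG00000113658, chr5:136132845-136188747, GRCh38) had 173, 180 and 187 CPM in siControl and 149, 131 and 130 CPM in siHOXA3. Every siHOXA3 library lay below every control, and the mean was 0.759 of the control mean. The log2 fold change was -0.40 (SE 0.0989, 95% interval -0.62 to -0.18, unadjusted p = 0.00193, edgeR adjusted p = 0.486). Over the 13 alternatives it ranged from -0.46 to -0.36, the unadjusted p from 0.000129 to 0.0119 and the adjusted p from 0.0542 to 0.997. SMAD5-AS1 lies on the opposite strand and overlaps 6.75% of the exon bases of SMAD5, and no source used here says whether reads were counted by strand. SMAD5 was also the most abundant SMAD, with 66.3 ± 2.84 TPM (SD, n = 3) in siControl and 48.4 ± 5.21 in siHOXA3, against 35.9 ± 1.23 for SMAD1 and 5.05 ± 1.1 for SMAD9 in siControl. The other members that share its place in the pathway had log2 fold changes of -0.13 (SMAD1, 95% interval -0.38 to 0.13) and 0.18 (SMAD9, -0.24 to 0.60). The activin-branch SMADs were SMAD2, at 0.039 (95% interval -0.18 to 0.26), and SMAD3, at -0.14 (-0.40 to 0.12). SMAD4, the common partner, gave -0.10 (-0.34 to 0.14). Summed over these 6 genes the level was 566 to 593 CPM in siControl and 521 to 543 CPM in siHOXA3, and SMAD5 alone had means of 180.0 and 137 CPM.

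**Figure D3:**
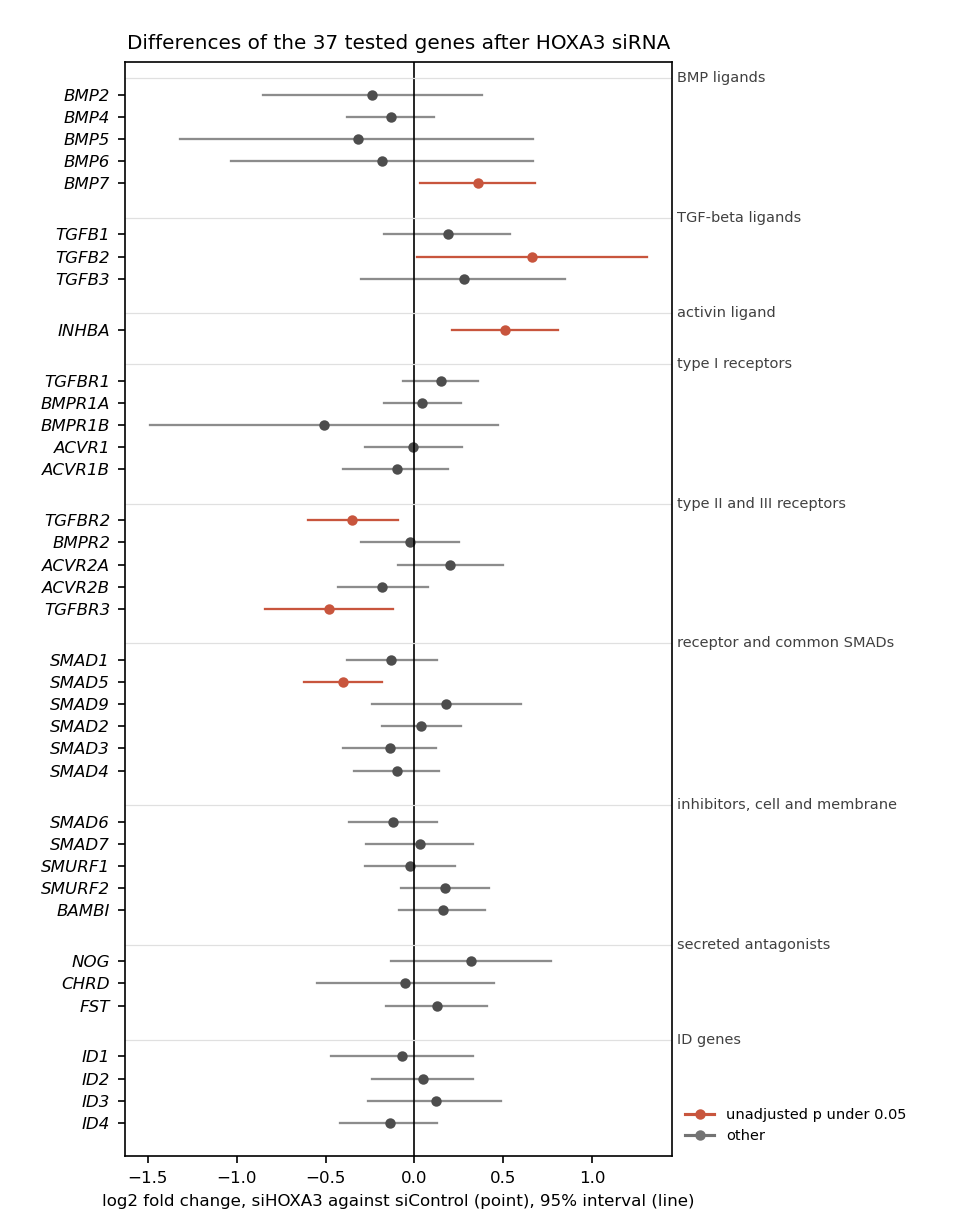
Log2 fold change of siHOXA3 against siControl (point) with its 95% interval (line) for the 37 tested members, grouped by role, with the 6 members of unadjusted p under 0.05 in red. INHBA (0.51) and SMAD5 (-0.40) have the intervals farthest from 0, and the widest intervals belong to the low-count BMP5, BMP6, BMPR1B and TGFB2.

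The inhibitors inside the cell and at the membrane had log2 fold changes between -0.12 and 0.17, and the intervals of all 5 lay within ±0.5. BAMBI, a decoy receptor without a kinase, was the most abundant, at 92.5 ± 6.43 TPM (SD, n = 3) in siControl. It had 62.1, 70.4 and 69.2 CPM in siControl and 71.6, 83.9 and 69.2 CPM in siHOXA3. The lowest siHOXA3 value lay within the control range, and the log2 fold change was 0.16 (SE 0.110, edgeR adjusted p = 0.843). SMAD6, which blocks the BMP branch and whose promoter window holds the SMAD palindrome printed above, gave -0.12 (95% interval -0.37 to 0.13). SMAD7, which blocks both branches, gave 0.030 (-0.27 to 0.33) from 15.5 to 16.3 CPM in siControl and 14.7 to 17.6 CPM in siHOXA3. The ubiquitin ligases SMURF1 and SMURF2, which mark SMADs and receptors for breakdown, gave -0.026 and 0.17, and 11.7% of the exon bases of SMURF1 are overlapped by TRRAP on the opposite strand. In TPM in siControl SMURF2 (37.6 ± 2.78), SMAD6 (37.3 ± 3.55) and SMURF1 (29.1 ± 0.624) stood well above SMAD7 (9.31 ± 0.191).

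The secreted antagonists were led by FST, follistatin, which traps activin, at 98.6 ± 14 TPM (SD, n = 3) in siControl. This was above the level of its ligand gene INHBA and above that of each BMP ligand. FST had 81.0, 102 and 106 CPM in siControl and 91.2, 116 and 108 CPM in siHOXA3, overlapping ranges with a log2 fold change of 0.13 (SE 0.129, edgeR adjusted p = 0.887). NOG, which binds BMPs, had 13.2, 14.2 and 11.4 CPM in siControl and 13.8, 21.8 and 12.8 CPM in siHOXA3. Its high value was in siHOXA3 replicate 2 alone, and its log2 fold change was 0.32 with all libraries and 0.036 without that one. CHRD, chordin, gave -0.051 (95% interval -0.55 to 0.45) at about 6 CPM. GREM1, another BMP antagonist, had 1 and 2 counts in 2 siControl libraries and 0 in all others.

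The ID genes, which encode inhibitors of basic helix-loop-helix factors, held the 3 most abundant members. ID1 stood at 948 ± 58.7 TPM (SD, n = 3) in siControl, ID3 at 291 ± 36.1, ID2 at 134 ± 12.6 and ID4 at 99.0 ± 11.3. ID1 had 343, 368 and 384 CPM in siControl and 272, 472 and 298 CPM in siHOXA3. Replicates 1 and 3 of siHOXA3 lay below all controls and replicate 2 above all of them. ID3 followed the same high value in the second library, with 129, 202 and 127 CPM in siHOXA3 and 130.3, 132 and 160.1 CPM in siControl. ID2 had 95.1, 130.4 and 103 CPM in siHOXA3 and 98.9, 102 and 116 CPM in siControl. ID4 had 73.6, 93.8 and 76.5 CPM in siHOXA3 and 81.6, 87.6 and 100.5 CPM in siControl, with its second siHOXA3 library inside the control range. The log2 fold changes over all libraries were -0.072 (ID1, standard error 0.181, edgeR adjusted p = 0.948), 0.048 (ID2), 0.12 (ID3) and -0.14 (ID4). Without siHOXA3 replicate 2 they were -0.36, -0.10, -0.14 and -0.26, the ID1 value having an unadjusted p of 0.000135 and an adjusted p of 0.0558 (0.0558 to 0.998 over the alternatives). Summed over the 4 genes the level was 654 to 761 CPM in siControl, 569.8 and 604 CPM in siHOXA3 replicates 1 and 3 and 898.5 CPM in replicate 2. That library also had the highest value of BMP7, TGFBR1, ACVR2A, SMAD2, SMAD7, BAMBI, NOG and FST, and the lowest of 8 members, so 19 of the 37 (51.4%) had an extreme value in it, beside 58.1% of all tested genes.

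**Figure D4:**
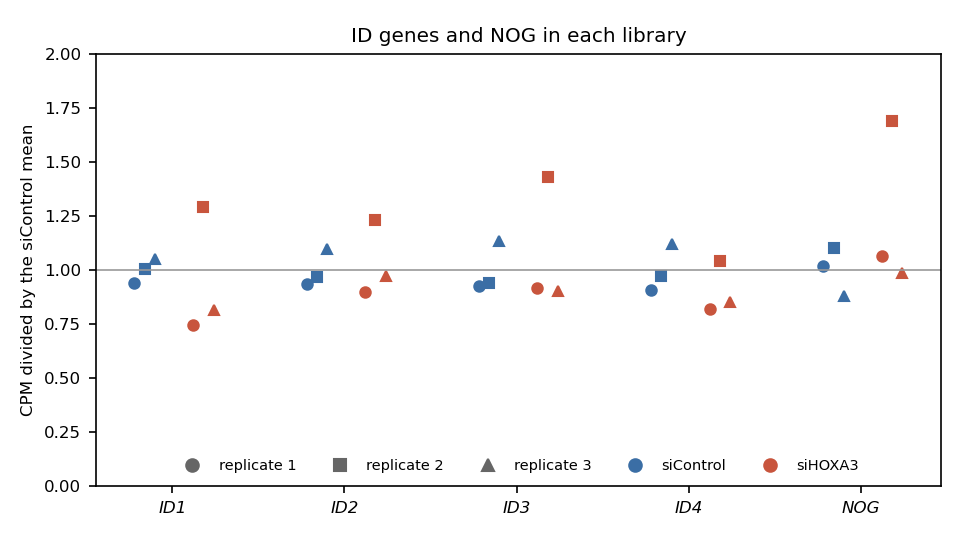
CPM of ID1, ID2, ID3, ID4 and NOG in each library divided by the siControl mean of the gene, with symbols for the replicates. The second siHOXA3 library (red square) is at 1.29 for ID1, 1.43 for ID3 and 1.69 for NOG, while siHOXA3 replicates 1 and 3 lie between 0.744 and 1.07.

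Other genes of the pathway were taken from a list of 99 genes that are not members, of which 68 were tested. At an unadjusted p under 0.05 there were 3 higher and 1 lower (5.88%, beside 6.36% of all tested genes), none had an adjusted p under 0.05, and the median log2 fold change was 0.058. The ligands outside the list were led by GDF6 at 51.1 TPM in siControl, with a log2 fold change of 0.11. GDF15, a stress-induced ligand of the family, had 18.0, 18.1 and 13.2 CPM in siControl and 21.0, 21.0 and 20.7 CPM in siHOXA3, and all siHOXA3 values were higher (log2 fold change 0.34, unadjusted p = 0.0409, edgeR adjusted p = 0.761). Of the proteases FURIN, which cleaves the propeptides, was the most abundant at 93.6 TPM (log2 fold change -0.041). Of the secreted modulators FSTL1 was the most abundant at 608 TPM (-0.0036), of the co-receptors RGMB at 3.66 TPM (0.062), and of the nuclear partners and repressors TGIF1 at 98.7 TPM (-0.093), although with the joined length of all exons SKI (81.6 TPM) was above TGIF1 (38.3 TPM). Of the regulators of receptors and SMADs by ubiquitin and transport, FKBP1A, which binds the type I receptor, was the most abundant at 344 TPM (-0.088). STUB1, a ubiquitin ligase, had a log2 fold change of 0.39 (unadjusted p = 0.0329, edgeR adjusted p = 0.741), with 26.4, 20.4 and 22.8 CPM in siControl and 25.9, 37.5 and 28.0 CPM in siHOXA3, an overlap.

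Of the genes listed as responding to TGF-beta and activin, TGFBI, an extracellular matrix protein named for its induction by TGF-beta, had 783, 844 and 850 CPM in siControl and 1134, 1133 and 978 CPM in siHOXA3, with every siHOXA3 value higher. Its log2 fold change was 0.39 (SE 0.113, 95% interval 0.14 to 0.64, unadjusted p = 0.0052, edgeR adjusted p = 0.584), and its adjusted p ranged from 0.0403 to 0.997 over the alternatives. The median log2 fold change over the 11 tested genes of this class was 0.064. Of the 15 tested BMP-responsive genes, a class that includes the ID genes, SMAD6, SMAD7, SMAD9 and BAMBI, none had an unadjusted p under 0.05 and the median was 0.12. HAND1, the most abundant of them after ID1 at 494 TPM, gave 0.11 (95% interval -0.12 to 0.34). Of the 11 Nodal-responsive genes of early endoderm 8 were too low to test, and GATA6 was the most abundant at 37.7 TPM with a log2 fold change of 0.0079.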

How the data were processed

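The authors deposited raw counts of reads per gene, whole numbers without normalization, for 3 siControl and 3 siHOXA3 samples at day 9. The labels name the LM-Seq protocol, from 100 ng of total RNA, and a SMARTER kit. The submitters' processing notes name the mouse builds GRCm38 and mm10, but all 58735 identifiers were found in GENCODE release 29 on human GRCh38, which gave symbols, positions and lengths. The aligner, the counting program and its strand setting are not given in the sources used here. The members and all gene lists were chosen with earlier results of these data known.

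The fit used R 4.3.3 and edgeR 4.0.16 (filterByExpr, TMM with factors 0.986 to 1.01, robust quasi-likelihood fit, two-sided test), with Benjamini-Hochberg adjustment over 16561 genes. CPM is relative to the normalized library size, and TPM uses the longest principal transcript of each gene. Full statistics are given for members with an unadjusted p under 0.05 or groups that did not overlap, for the most abundant of each class and for BMP4. Other pathway genes are named for an unadjusted p under 0.05 or as the most abundant of a class. In a test on simulated counts (16496 genes) edgeR recovered 100% of log2 changes of 2 and 84% of those of 1, and 5.64% of calls were false. Smaller changes were not simulated, so the test gives no rate for changes of the size seen in the members. Only genes with a mean above 2 CPM were changed, so it gives none for lower members such as BMP5, BMP6 and BMPR1B. Noise was drawn separately for each gene, so no simulated library stood apart as siHOXA3 replicate 2 did.

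Replicate pairs differed by more than sampling noise (chi-square per degree of freedom 4.83 to 34.1). Same-numbered libraries had correlations of deviations of 0.142, 0.104 and -0.059. The largest with a library of another number was 0.0889, -0.0288 and 0.0711 for siControl replicates 1, 2 and 3. These values do not decide whether the numbers pair the libraries. The main fit did not pair them, and the replicate block is among the alternatives. Alternatives were DESeq2 1.42.0, upper-quartile normalization, unnormalized library sizes, no filter, CPM above 1 in 3 libraries, the replicate block, limma 3.58.1 (voom with quality weights) and leaving out each library. Of the listed symbols, 2 had no match, and the values of 1 other pathway gene are not reported here. Promoters are those of RefSeq on GRCh38.p14.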

Additional observations from a re-analysis of the deposited data

How the results depend on the processing

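Across the 13 alternatives the direction of a member's log2 fold change was kept in 457 of 480 values, and 25 of the 37 members, INHBA, BMP7, TGFB2, SMAD5, TGFBR2, TGFBR3 and BMP4 among them, kept theirs throughout. Under limma-voom with quality weights the count of members with an adjusted p under 0.05 was 1 (INHBA; 0.405% of all genes) instead of 0, and BMPR2 turned to 0.057, SMAD2 to -0.032, SMAD7 to -0.043, SMURF1 to 0.027, ID2 to -0.064 and ID3 to -0.058. With upper-quartile normalization ACVR1 turned to 0.013. With each library left out in turn, log2 fold changes that turned ranged from -0.41 to 0.13 (BMP6), -0.023 to 0.086 (BMPR1A), -0.092 to 0.078 (ACVR1), -0.20 to 0.033 (ACVR1B), -0.11 to 0.090 (BMPR2), -0.017 to 0.10 (SMAD2), -0.031 to 0.10 (SMAD7), -0.12 to 0.070 (SMURF1), -0.27 to 0.11 (CHRD), -0.36 to 0.078 (ID1), -0.10 to 0.14 (ID2) and -0.14 to 0.24 (ID3). The cause was not tested. With a library left out, 3 to 9 members had an unadjusted p under 0.05 (3.75 to 10.7% of all genes), the groups did not overlap for 7 to 12 members (19.9 to 27.6% of all genes), the median of the members ranged from -0.063 to 0.078, and HOXA3 from -0.40 to -0.15. With the replicate block 4 members had an unadjusted p under 0.05 (INHBA, SMAD5, TGFBR2 and TGFBR3; 6.70% of all genes) and 0 an adjusted one (0.0242% of all genes), the median was -0.033 and HOXA3 stood at -0.28. The intervals of BMP5, BMP6, BMPR1B and TGFB2, all low in counts, reached beyond a 2-fold change.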
